A study of Mus musculus with 18 samples.

Results

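The mRNAs of surface molecules with which a macrophage stimulates, restrains or adheres to T cells were followed in RAW264.7 cells, a transformed mouse macrophage line. The genes were chosen from a list of 9 by symbol. It held the B7 family ligands Cd80, Cd86, Cd274 and Icosl, and Cd83, Icam1 and Slamf7. It also held Cd40, of the TNF receptor superfamily, and Tnfsf9, a ligand of the TNF superfamily. The count table held 8 of the 9 among its 11243 genes. Slamf7, a receptor of the SLAM family, had no row and is named only. The table kept genes with at least 1 count in every library, so the missing row gives no level for it.

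Cells of 3 treatments were compared. Control cells received vehicle (DMSO, labelled Veh) and neither LPS nor torin1. LPS cells received LPS of Salmonella enterica serotype minnesota at 500 ng/mL for 6 h. LPS+torin1 cells received the same LPS for 6 h after 15 min with torin1 at 100 nM, an inhibitor of the active site of the mTOR kinase. All cells were RAW264.7, and 3 independent experiments were made with each treatment. Both the total mRNA and the mRNA of the pooled heavy polysomes, the fraction that carries several ribosomes, were sequenced from each of the 9 lysates, which gave 18 libraries.

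A T cell needs a second signal beside its antigen receptor. CD80 and CD86 on the presenting cell give that signal through CD28 and are also bound by the inhibitory receptor CTLA-4, whereas CD274 (PD-L1) engages the inhibitory receptor PD-1 and ICOSL engages ICOS. CD40 receives CD40 ligand from T cells and signals through TRAF adaptors and NF-κB. The 4-1BB ligand encoded by Tnfsf9 stimulates T cells through 4-1BB, and ICAM1 is a ligand of the integrin LFA-1. Resting macrophages carry low levels of several of these proteins, and ligands of Toll-like receptors such as LPS are known inducers of them.

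Levels are given as CPM, a gene's reads per 1000000 reads counted in its library, scaled by the TMM method over the 18 libraries. The libraries held between 27800983 and 47725557 counted reads. Where genes are compared with each other, CPM was divided by the length of the union of a gene's exons in kb. A gene was called when the Benjamini-Hochberg adjusted p of edgeR's quasi-likelihood test over all 11243 genes was at most 0.25, and fold changes are given on the log2 scale with their standard error (SE). All tests rest on 3 experiments per group, and an exact permutation test of 3 against 3 libraries could not go below p = 0.1. The RNA was bulk, in which fewer cells expressing a gene and less RNA per cell cannot be told apart.

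The macrophage identity of the line was checked against its markers. Of 12 macrophage markers 10 had a row, and Mertk and Cd163 did not. The summed level of the 10 was between 11535 and 15152 CPM in the total mRNA libraries. None of 11 lymphocyte markers had a row, which, as for Slamf7, gives no level for them. The 2 stromal or epithelial markers with a row (of 10) summed to between 0.911 and 1.95 CPM over all libraries. Of 11 dendritic cell markers 5 had a row, and Flt3, Ccr7, Batf3, Clec9a, Cd209a and Dpp4 did not. In their highest library Relb reached 69.3, Itgax 57.1, Xcr1 12.4, Zbtb46 1.23 and Fscn1 1.01 CPM. The summed level of the 5 in total mRNA was 18.8 to 20.4 CPM in the control, 41.9 to 64.3 CPM in LPS and 64.5 to 97.7 CPM in LPS+torin1 cells. The part of that shift in the results below was not tested.

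The 8 genes lie apart in the genome except for Cd80 and Cd86, which are both on chromosome 16 of GRCm38 (Cd80 at chr16:38455561-38496335, forward strand, and Cd86 at chr16:36603869-36666081, reverse strand). Cd40 lies at chr2:165055627-165072948, Cd83 at chr13:43784775-43803132 and Icosl at chr10:78069302-78083913. The other 3 genes, Cd274 (chr19:29367455-29388095), Icam1 (chr9:21015985-21028817) and Tnfsf9 (chr17:57105325-57107757), each overlap an annotated noncoding gene on the opposite strand. Counting was per gene over exons, and since the strand setting of the counting was not spelled out, reads of those noncoding genes may be among their counts.

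The promoters of Icam1, Cd80 and Cd274 are shown because these 3 genes rose together with LPS and RefSeq (GRCm38.p6) gave an entry of 300 bases, from 250 before to 50 after the start, in which a searched motif was found. Entries were given for 4 of the 8 genes, and the fourth, Icosl, held none of the searched motifs. The stretches below are read on the forward strand, with the motif matches in capitals. In Icam1 they mark 2 matches to GGNNTTTCC, a short form of the κB motif bound by NF-κB, both read on the reverse strand. In Cd80 the capitals mark a match to TGANTCA, a loose form of the AP-1 motif that allows any middle base. That pattern reads the same on both strands. In Cd274 the capitals mark a reverse-strand match to GAAANNGAA, a form of the element bound by interferon regulatory factors.
Icam1, chr9:21015767-21015884: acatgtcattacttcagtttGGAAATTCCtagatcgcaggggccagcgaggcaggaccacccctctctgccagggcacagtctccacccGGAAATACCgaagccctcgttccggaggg
Cd80, chr16:38458871-38458917: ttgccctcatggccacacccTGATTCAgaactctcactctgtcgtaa
Cd274, chr19:29367342-29367390: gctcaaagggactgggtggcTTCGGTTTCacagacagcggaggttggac
The matches began at positions -153 and -84 from the start of Icam1, -42 from that of Cd80 and -76 from that of Cd274. Among 10924 promoter entries of the genes in the table, searched on both strands, 6.26% held GGNNTTTCC, 4.99% held TGANTCA and 7.26% held GAAANNGAA. The short κB form was searched after the longer κB consensus, held by 5.03% of the entries, had matched none of the 4 promoters. The RefSeq start of Cd80 lies inside the gene annotated above, and which starts these cells use was not measured. A match of letters does not show binding.

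In control cells the 8 mRNAs spanned a wide range per exon length. Icam1 was highest, at 29.9 ± 1.68 CPM per kb of total mRNA (SD, n = 3), followed by Tnfsf9 at 16.7 ± 3.996 and Cd83 at 4.88 ± 1.98. Cd40 and Cd274 followed at 1.79 ± 0.882 and 1.29 ± 0.800 CPM per kb. The other B7 ligands were lowest, with Icosl at 0.536 ± 0.123, Cd80 at 0.222 ± 0.0533 and Cd86 at 0.160 ± 0.0670 CPM per kb. The libraries of Icam1, Tnfsf9 and Cd83 did not overlap with one another, and neither did those of Icosl and Cd80, whereas the neighbours Cd83 and Cd40, Cd40 and Cd274, Cd274 and Icosl, and Cd80 and Cd86 overlapped.

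The comparison of LPS with control cells asks which of these mRNAs respond to the activation of the macrophage. All 8 rose with LPS, in total and in polysome-associated mRNA and in each of the 3 experiments, by between 1.87-fold (Icam1) and 48.9-fold (Cd40) in total mRNA. Among all genes, 32.2% were called higher and 34.3% lower in total mRNA, and 26.4% and 28.7% in polysome-associated mRNA. The median change of the 8 was 3.58 on the log2 scale in total and 4.11 in polysome-associated mRNA, beside -0.02 and -0.03 over all genes. The largest adjusted p of edgeR's quasi-likelihood test among the 8 was 0.00106 in total and 0.0131 in polysome-associated mRNA.

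**Figure D1:**
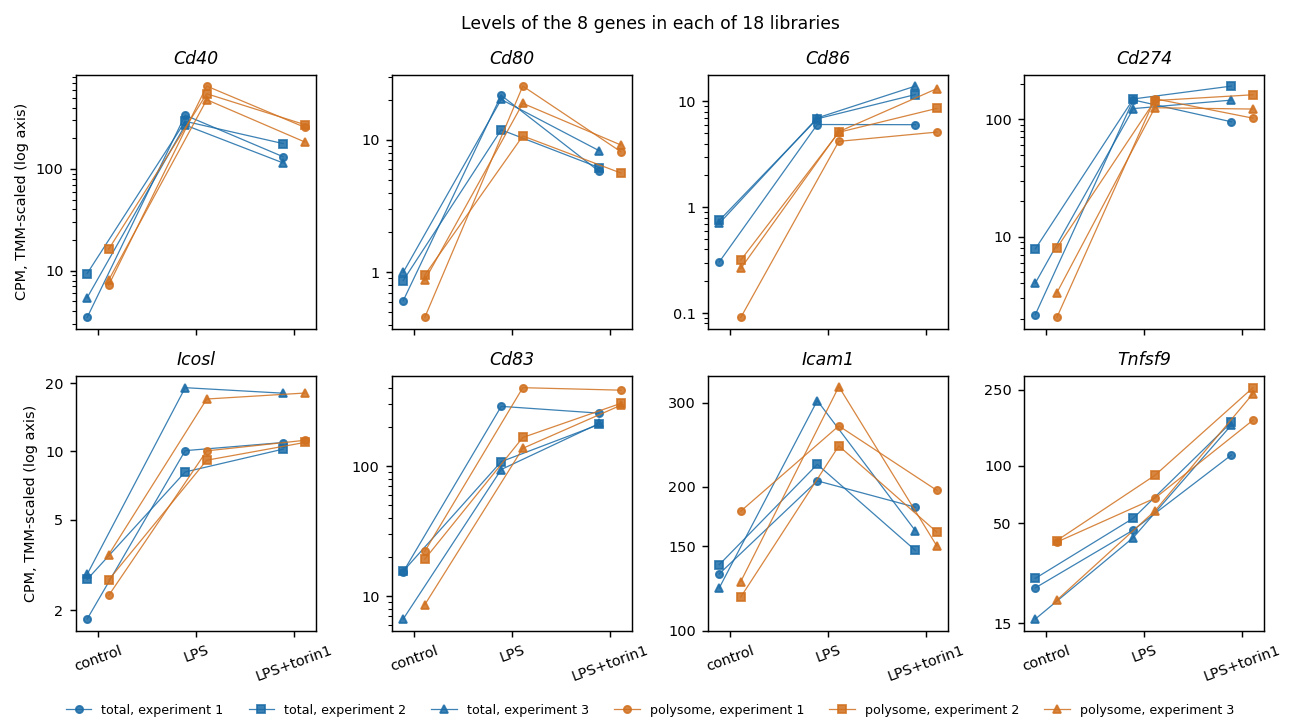
Level of each of the 8 genes in CPM (log axis, TMM-scaled) in control, LPS and LPS+torin1 cells, with total mRNA in blue, polysome-associated mRNA in orange, and a symbol and line for each experiment. Every LPS library lies above every control library of the same RNA type for each gene, while with torin1 Cd40, Cd80 and Icam1 lie lower than with LPS alone in every experiment and Tnfsf9 lies higher.

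Cd40, the receptor for CD40 ligand, showed the largest rise. Its total mRNA was at 3.47, 9.37 and 5.42 CPM in the control libraries of experiments 1, 2 and 3 and at 337, 294 and 270 CPM with LPS, a log2 fold change of 5.61 (SE 0.35). In polysome-associated mRNA it went from 7.21, 16.3 and 8.10 CPM to 652, 548 and 479 CPM, a log2 fold change of 5.73 (SE 0.36). The groups were far apart in both RNA types. Tnfsf9, which encodes the 4-1BB ligand, was already well above the B7 ligands in control cells and rose less, from 22.97, 25.8 and 15.8 CPM to 46.2, 53.2 and 42.2 CPM of total mRNA (2.19-fold, log2 1.13, SE 0.20). Its polysome-associated mRNA rose by 1.102 (log2, SE 0.28). All LPS libraries of Tnfsf9 lay above all control libraries.

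Among the B7 ligands, Cd274 (PD-L1) rose most. Its total mRNA was at 2.16, 7.84 and 4.02 CPM in control cells and at 146, 149 and 123.4 CPM with LPS (29.4-fold, log2 4.88, SE 0.42), and in polysome-associated mRNA the change was 4.97 (SE 0.45). The control libraries differed from each other by more, in ratio, than the LPS libraries did. Cd80 went from 0.609, 0.864 and 0.997 CPM to 21.7, 11.9 and 20.2 CPM of total mRNA (21.6-fold, log2 4.43, SE 0.30) and rose by 4.58 (SE 0.39) in polysome-associated mRNA. Its LPS level in experiment 2 was the lowest of the 3 in both RNA types.

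Cd86, the other ligand of CD28, was the least abundant of the 8 in control cells, with 10, 33 and 24 reads in total and 4, 14 and 14 reads in polysome-associated mRNA in experiments 1, 2 and 3. Its total mRNA rose from 0.304, 0.750 and 0.704 CPM to 6.05, 6.85 and 6.99 CPM (11.1-fold, log2 3.47, SE 0.37). In polysome-associated mRNA it rose from 0.0910, 0.317 and 0.264 CPM to 4.20, 5.11 and 5.18 CPM (21.2-fold, log2 4.40, SE 0.46). Icosl, the ICOS ligand, showed the smallest rise of the B7 ligands: 1.83, 2.73 and 2.87 CPM of total mRNA in control cells and 10.1, 8.12 and 19.1 CPM with LPS (5.00-fold, log2 2.32, SE 0.36), and a change of 2.08 (SE 0.30) in polysome-associated mRNA. Its LPS level was highest in experiment 3.

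Cd83, a surface protein of activated antigen-presenting cells known to protect CD86 and MHC class II from degradation, was at 15.4, 15.6 and 6.68 CPM of total mRNA in control cells and at 288, 108 and 94.1 CPM with LPS (12.98-fold, log2 3.70, SE 0.46). The LPS library of experiment 1 thus held more than the other 2 together. Its polysome-associated mRNA rose by 3.81 (SE 0.46), and there too experiment 1 was highest, at 400.1 CPM against 166 and 137 CPM. Icam1, the LFA-1 ligand, had the highest control level and the smallest rise, from 131.4, 137 and 122.8 CPM to 206, 223 and 303 CPM of total mRNA (1.87-fold, log2 0.90, SE 0.15) and by 0.98 (SE 0.19) in polysome-associated mRNA. Even so, its 3 LPS libraries lay above its 3 control libraries in both RNA types.

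After LPS the order per exon length had changed. Cd40 led at 88.2 ± 10.1 CPM per kb of total mRNA (SD, n = 3), followed by Cd83 at 63.5 ± 41.9, Icam1 at 55.9 ± 11.9, Cd274 at 38.5 ± 3.89 and Tnfsf9 at 36.6 ± 4.35. Cd80 (4.84 ± 1.42), Icosl (2.69 ± 1.27) and Cd86 (1.81 ± 0.138 CPM per kb) remained lowest. The libraries of Cd83 overlapped with those of Cd40, Icam1, Cd274 and Tnfsf9, those of Cd274 with Tnfsf9, and those of Icosl with both Cd80 and Cd86. The lowest Icam1 library lay above the highest of Cd274, and the lowest Tnfsf9 library far above the highest of Cd80.

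The comparison of LPS+torin1 with LPS asks how the levels with LPS differ when mTOR is inhibited. None of the 18 libraries came from cells given torin1 alone. Effects of torin1 on the response to LPS and on the level without LPS thus cannot be told apart. In this comparison the 8 genes split. In both RNA types Cd40, Cd80 and Icam1 fell, Tnfsf9 and Cd86 rose, and Cd274, Icosl and Cd83 did not pass the test. Among all genes, 27.3% were called higher and 26.4% lower in total mRNA, and 20.3% and 18.2% in polysome-associated mRNA, so that calls were frequent in both directions. The median change of the 8 was 0.06 on the log2 scale in total and 0.04 in polysome-associated mRNA. Both comparisons use the same 3 LPS libraries per RNA type, so that an extreme LPS library moves a gene in opposite directions in the 2 comparisons.

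**Figure D2:**
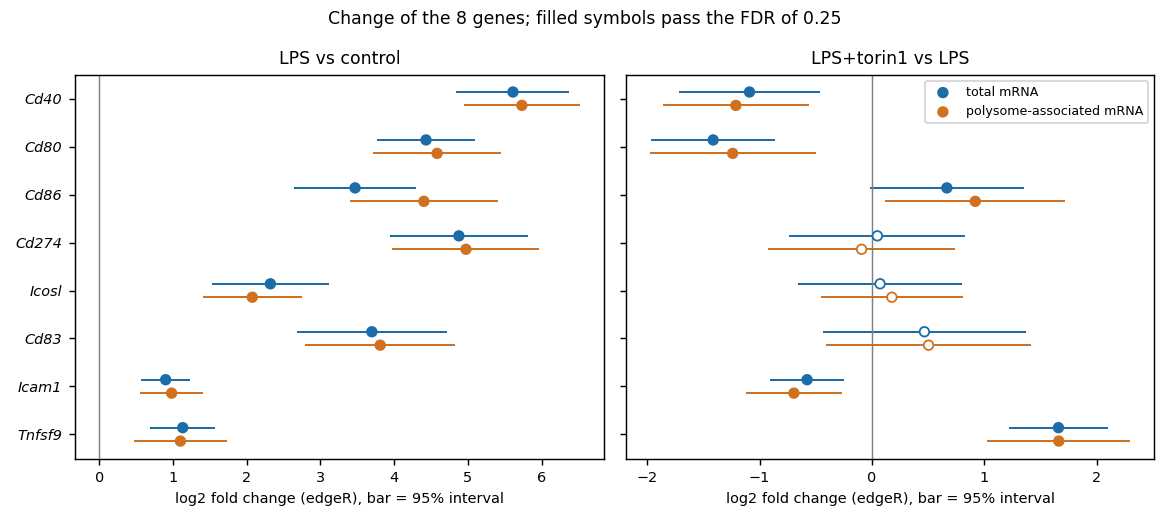
Log2 fold change of the 8 genes with its 95% interval (edgeR) for LPS against control (left) and LPS+torin1 against LPS (right), total mRNA in blue and polysome-associated mRNA in orange; filled symbols passed the adjusted p of 0.25. All 8 lie to the right of 0 with LPS, whereas with torin1 Cd40, Cd80 and Icam1 lie to the left, Tnfsf9 and Cd86 to the right. The intervals of Cd274, Icosl and Cd83, and that of Cd86 in total mRNA, include 0.

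Cd80 fell furthest with torin1. Its total mRNA was at 5.77, 6.16 and 8.27 CPM in experiments 1, 2 and 3, beside the 21.7, 11.9 and 20.2 CPM with LPS alone, a log2 fold change of -1.41 (SE 0.25, adjusted p = 0.00275, edgeR's quasi-likelihood test). In polysome-associated mRNA it was at 8.14, 5.61 and 9.15 CPM beside 25.5, 10.7 and 18.9 CPM (-1.24, SE 0.33, adjusted p = 0.0339, edgeR). The groups did not overlap in either RNA type. Cd40 fell from the levels above to 132, 177 and 114 CPM of total mRNA (-1.09, SE 0.28, adjusted p = 0.0165, edgeR) and to 256, 272 and 184 CPM of polysome-associated mRNA (-1.21, SE 0.29, adjusted p = 0.0222, edgeR). It was lower in 3 of 3 experiments, without overlap of the groups.

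Icam1 also fell, to 181, 147 and 162 CPM of total mRNA (-0.58, SE 0.15, adjusted p = 0.0155, edgeR) and from 268, 243 and 324 CPM with LPS to 196, 161 and 150.3 CPM of polysome-associated mRNA (-0.69, SE 0.19, adjusted p = 0.0386, edgeR). The groups did not overlap. In total mRNA the change was -0.18 in experiment 1 and -0.90 in experiment 3. Without experiment 3 the polysome-associated change was -0.48 and was not called (adjusted p = 0.434, edgeR). Calls over all genes were fewer there as well, 1187 of 11243 genes beside 4322 with all experiments.

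Tnfsf9 moved the other way. Its total mRNA was at 114, 169 and 164 CPM with LPS+torin1, above all 3 LPS libraries (log2 1.66, SE 0.20, adjusted p = 0.000399, edgeR). Its polysome-associated mRNA was at 67.7, 89.3 and 58.1 CPM with LPS and at 174, 257 and 239 CPM with LPS+torin1 (log2 1.66, SE 0.29, adjusted p = 0.00511, edgeR). The 3.16-fold change with torin1 in total mRNA came on top of the 2.19-fold change with LPS, so that Tnfsf9 with both was 6.92-fold above control cells.

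Cd86 rose by 0.67 (log2, SE 0.31, 95% interval -0.02 to 1.35, adjusted p = 0.131, edgeR) in total and by 0.92 (SE 0.36, adjusted p = 0.118, edgeR) in polysome-associated mRNA. The levels with LPS+torin1 were 6.03, 11.6 and 14.0 CPM of total and 5.13, 8.60 and 13.2 CPM of polysome-associated mRNA. In experiment 1 the total mRNA did not move (log2 -0.01), so that the groups overlapped there, and in polysome-associated mRNA its LPS+torin1 level lay between 2 of the LPS libraries. The call rested on few libraries. It was lost in total mRNA without experiment 2 (0.61, adjusted p = 0.339, edgeR) or 3 (0.45, adjusted p = 0.525), and in polysome-associated mRNA without experiment 3 (0.60, adjusted p = 0.58). It was also lost in both at an FDR of 0.05 in the main model. With the experiment as a replicate block Cd86 was called higher in total (0.59, adjusted p = 0.0435, edgeR) and polysome-associated mRNA (0.83, adjusted p = 0.0449, edgeR).

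The 3 remaining genes were not called. Cd83 was at 255, 209 and 213 CPM of total mRNA with LPS+torin1, a change of 0.47 (95% interval -0.44 to 1.37, adjusted p = 0.427, edgeR), and at 383, 303 and 293 CPM of polysome-associated mRNA (0.50, adjusted p = 0.452, edgeR). It was higher with torin1 in experiments 2 and 3 and lower in experiment 1, where LPS alone gave its highest level. With the experiment as a replicate block Cd83 was called higher in total (0.64, adjusted p = 0.103, edgeR) and polysome-associated mRNA (0.66, adjusted p = 0.1, edgeR), and likewise without experiment 1 (1.06, adjusted p = 0.0657, and 1.01, adjusted p = 0.218, edgeR). Its call thus depends on how experiment 1 enters.

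Cd274 had changes of 0.05 in total (95% interval -0.73 to 0.83) and -0.09 in polysome-associated mRNA (-0.93 to 0.74). With LPS+torin1 its total mRNA was at 95.2, 192 and 146 CPM, and the 3 libraries lay on both sides of the LPS libraries. Experiment 1 was lower with torin1 (log2 -0.62) and experiments 2 and 3 were higher (0.36 and 0.24). Icosl had changes of 0.07 (95% interval -0.65 to 0.80) and 0.18 (-0.46 to 0.81), with 10.9, 10.2 and 18.045 CPM of total mRNA, each close to the LPS level of the same experiment. Experiment 3 was highest in both treatments. These intervals, from the model without a block, still allow changes of Icosl from 0.635-fold to 1.74-fold in total mRNA. For Cd274 they allow 0.601-fold to 1.78-fold. With the experiment as a replicate block the SE in total mRNA was smaller. Icosl then had a change of 0.11 with an SE of 0.19 in place of 0.33, and Cd274 -0.035 with an SE of 0.24 in place of 0.35.

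The CD28 ligands were also compared as a ratio within each library, a comparison chosen after the values were seen and given without a test. A fall of Cd80 alone raises this ratio, so it does not show a rise of Cd86. In total mRNA of experiment 1, Cd80 changed by -1.91 with torin1 (log2) and Cd86 by -0.01. The exon lengths of Cd86 and Cd80 are alike, at 3661 and 3703 bases. In total mRNA Cd86 CPM divided by Cd80 CPM was 0.511, 0.870 and 0.710 in control cells, 0.280, 0.576 and 0.347 with LPS, and 1.05, 1.88 and 1.69 with LPS+torin1. Cd86 was thus below Cd80 in every control and LPS library and above it in every LPS+torin1 library of total mRNA. From LPS to LPS+torin1 the ratio changed by 1.96 on the log2 scale (SD 0.29 between the 3 experiments), or 3.90-fold.

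In polysome-associated mRNA the ratio was 0.223, 0.343 and 0.315 in control cells, 0.165, 0.478 and 0.275 with LPS, and 0.632, 1.53 and 1.44 with LPS+torin1. The LPS+torin1 libraries lay above all LPS libraries. The change from LPS to LPS+torin1 was 2.00 on the log2 scale (SD 0.36), or 4.01-fold, close to that in total mRNA, whereas the control and LPS libraries overlapped.

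**Figure D3:**
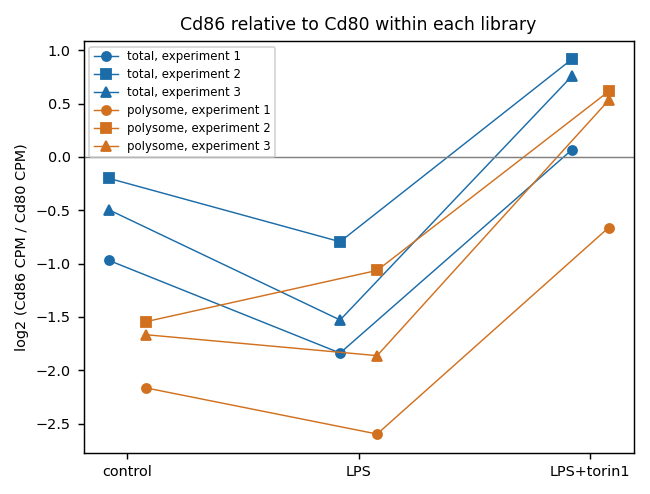
Log2 of Cd86 CPM divided by Cd80 CPM within each library, by treatment, with total mRNA in blue, polysome-associated mRNA in orange and a symbol and line for each experiment; at 0 both are equal. With LPS+torin1 the ratio is above that with LPS in all 3 experiments and both RNA types, by 1.96 (total) and 2.00 (polysome-associated) on average.

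Compared with control cells, LPS+torin1 cells still had higher levels of nearly all of these mRNAs. All 8 were called higher in total mRNA, where 33.1% of all genes were called higher and 33.6% lower, and 7 of 8 in polysome-associated mRNA, where it was 28.5% and 29.7%. The median change was 3.58 in total and 3.83 in polysome-associated mRNA on the log2 scale. In total mRNA Cd274 was 30.4-fold and Cd40 22.99-fold above control cells, and Cd80 was 8.12-fold above them. The exception was Icam1, which was 1.25-fold higher in total mRNA (log2 0.32, adjusted p = 0.0953, edgeR) and had a change of 0.29 (adjusted p = 0.274, edgeR) in polysome-associated mRNA. The call of Icam1 in total mRNA was lost without experiment 1 (0.26, adjusted p = 0.263, edgeR) and at an FDR of 0.05, and with the experiment as a replicate block Icam1 was called in polysome-associated mRNA (adjusted p = 0.164, edgeR).

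With LPS+torin1 the order per exon length in total mRNA was led by Tnfsf9 at 115.5 ± 23.6 CPM per kb (SD, n = 3), with Cd83 at 87.7 ± 9.94, and their libraries overlapped. Cd40 (41.4 ± 9.55), Cd274 (39.8 ± 13.3) and Icam1 (37.5 ± 3.91) followed and overlapped with one another, all below Cd83. Cd86 (2.88 ± 1.11), Icosl (2.83 ± 0.935) and Cd80 (1.82 ± 0.364 CPM per kb) were lowest, and their ranges overlapped as well.

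The distribution between total and polysome-associated mRNA was compared next, as polysome minus total log2 CPM in each lysate. A positive value says that the mRNA took a larger share of the polysome library than of the total library. Cd40 was positive in all 9 lysates, from 0.58 to 1.05 with a mean of 0.82 (1.76-fold), a mean higher than that of 92.1% of all genes. Tnfsf9, from 0.33 to 0.80 (mean 0.59), and Cd83, from 0.31 to 0.62 (mean 0.49), were also positive in all 9. The B7 ligands Cd80 (mean 0.00), Cd274 (-0.08) and Icosl (0.08) and the adhesion ligand Icam1 (0.11) had lysates on both sides of 0.

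Cd86 alone of the 8 was negative in all 9 lysates. In control cells its polysome minus total difference was -1.60, -1.21 and -1.37 in experiments 1, 2 and 3, in LPS cells -0.53, -0.42 and -0.43, and in LPS+torin1 cells -0.23, -0.43 and -0.08. The control lysates lay below all others without overlap. The differences in control cells rest on 4 to 33 reads per library.

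**Figure D4:**
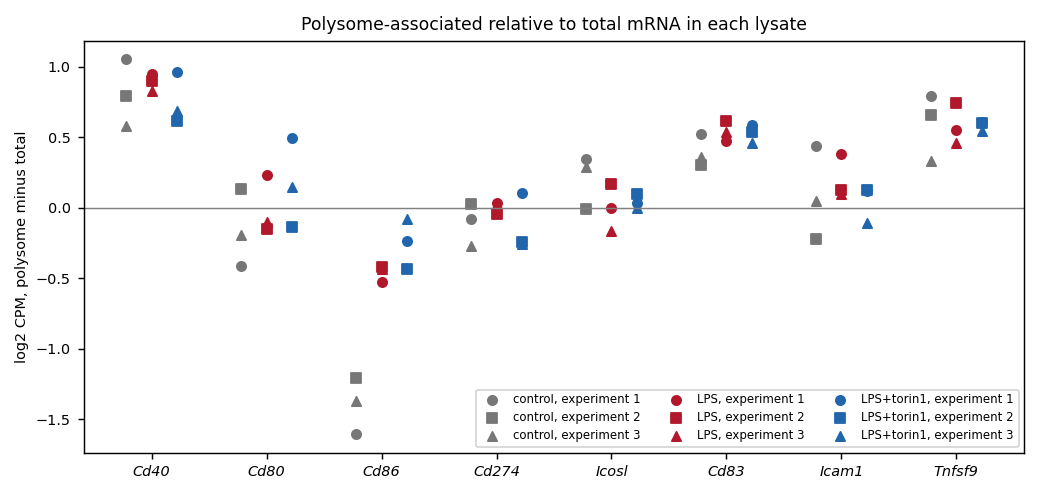
Polysome minus total log2 CPM of each of the 8 genes in each lysate, with control in grey, LPS in red, LPS+torin1 in blue and a symbol for each experiment. Cd40, Cd83 and Tnfsf9 lie above 0 in all 9 lysates, and Cd86 lies below 0 in all 9 and lowest in the 3 control lysates.

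Whether a treatment changed translation efficiency, that is, the polysome-associated mRNA relative to the total mRNA, was tested with an interaction term between treatment and RNA type in a model of all 18 libraries. Each library was scaled by TMM, so a change in polysome loading shared by most mRNAs is not seen. Only a departure of a gene from the other mRNAs can be called. A call also needed a change of 1.2-fold or more. None of the 8 genes was called for LPS against control or for LPS+torin1 against LPS by edgeR's quasi-likelihood test. In that model 0.0% of all genes were called in either comparison, with 44 and 110 of 11243 genes at an unadjusted p under 0.05. Other models called 0 and 25 genes (lysate as a block), 1 and 13 (DESeq2) and 10 and 21 (an analysis of partial variance). The study's own analysis reported a subset of mRNAs with changed translation efficiency. The 0.0% thus holds for that model only. Of the 8 genes, 0 reached an unadjusted p of 0.05 in either comparison in the edgeR model without a block. None was called by the analysis of partial variance, or by DESeq2 with LPS. With torin1 DESeq2 gave no adjusted p for 8719 of 11243 genes, Tnfsf9 among them. Such genes could not be called, so the lack of DESeq2 calls with torin1 decides nothing for them. The largest estimate in the edgeR model was that of Cd86 with LPS, 0.93 on the log2 scale (95% interval -0.37 to 2.23, edgeR), positive in 3 of 3 experiments. With the lysate as a replicate block it was 0.92 (SE 0.29, unadjusted p = 0.00673, adjusted p = 1.0, edgeR). For the other 7 genes the estimates with LPS were between -0.24 (Icosl) and 0.15 (Cd80), and for all 8 those with torin1 were between -0.17 (Cd274) and 0.23 (Cd86). The interval of the torin1 estimate was -0.67 to 0.39 for Icam1 and -1.35 to 1.37 for Cd83 in this model, which does not use the sharing of a lysate by both RNA types. With the lysate as a block the torin1 estimate of Cd83 was -0.016 with an SE of 0.13 in place of 0.64, that of Cd40 -0.14 with an SE of 0.15 in place of 0.44, and that of Icam1 -0.16 with an SE of 0.17 in place of 0.25. The analysis of partial variance gave other sizes with LPS, -0.94 for Cd80, 0.94 for Cd40 and 0.33 for Cd86, none of them called.

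The 8 genes did not all follow one pattern across the 18 libraries. Log2 CPM of Cd40 and Cd80 (Pearson r = 0.96), Cd40 and Cd274 (0.96) and Cd274 and Cd86 (0.96) ran closely together, whereas r was 0.19 between Icam1 and Tnfsf9 and 0.48 between Icam1 and Cd86. These coefficients describe 18 libraries of 9 lysates, in which total and polysome libraries share a lysate and the step from control to LPS dominates. Of all other genes, Il1b (r = 0.99) and Socs3 (0.99) were most like Cd40, Vegfc (0.99) and Ccr1 (0.98) most like Cd80, and Dgkh (0.99) and Il13ra2 (0.98) most like Cd86. Gbp5 and Irg1 (both 0.99) were most like Cd274, Maff and Ccl9 (both 0.99) most like Cd83, and Lrrc8d (0.97) and Tm9sf4 (0.96) most like Icosl. The nearest genes to Icam1 were Sdc4 (0.94) and Mybbp1a (0.93), and those to Tnfsf9 were Ralgds and Tm4sf19 (both 0.98).

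The other genes of the same families were counted for context. Their counts in total mRNA stand beside 32.2% of all genes called higher and 34.3% lower with LPS, and 27.3% and 26.4% with torin1. Of 13 further B7, butyrophilin and inhibitory ligand or receptor genes with a row, 9 rose and 4 fell with LPS in total mRNA, with a median change of 0.90. Clec2d, a ligand of an NK cell receptor, rose by 3.82 (log2) and fell by 1.297 with torin1. Cd276 (B7-H3) fell by 1.14 with LPS and fell by 0.92 with torin1, a call lost without experiment 3 (-0.80, adjusted p = 0.259, edgeR), and Havcr2 (TIM-3) fell by 1.28 with LPS and fell by 1.51 with torin1. With torin1 4 of the 13 rose and 6 fell.

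Of 21 further TNF superfamily ligands and receptors, 11 rose and 5 fell with LPS in total mRNA (median 0.61), and 7 rose and 9 fell with torin1. Tnfrsf1b, a TNF receptor, rose by 5.62 with LPS, as far as Cd40, and rose by 0.82 with torin1, where Cd40 fell. Tnfrsf9, which encodes 4-1BB, the receptor of the Tnfsf9 product, rose by 3.16 with LPS, from a mean of only 0.304 CPM in control cells. With torin1 its change was -0.93 (adjusted p = 0.272, edgeR), and it was called lower with the replicate block (-0.86, adjusted p = 0.121) and by DESeq2 (-0.95, adjusted p = 0.225). Tnf itself rose by 3.21 with LPS and had a change of -0.22 with torin1 (adjusted p = 0.47, edgeR). Tnfrsf11a (RANK) fell by 1.40 with LPS and fell by 1.56 with torin1.

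All 20 genes listed for CD40 signalling and noncanonical NF-κB had a row. With LPS 16 rose and 1 fell in total mRNA (median 0.80). Tnfaip3, which encodes the NF-κB inhibitor A20, rose by 3.90, the adaptor Traf1 by 2.48 and the NF-κB subunit Relb by 0.70, whereas the kinase gene Map3k14 (NIK) fell by 0.66. With torin1 7 rose, Relb among them by 0.73, and 3 fell, while Cd40 itself fell. With the replicate block 6 fell.

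Of 13 further adhesion ligands and LFA-1 partners, 9 rose and 2 fell with LPS in total mRNA. With torin1 3 rose, 2 fell and 8 were not called. F11r (JAM-A), an adhesion molecule of the immunoglobulin family, rose by 3.90 and fell by 1.70 with torin1, in the direction of Icam1, while Icam2 had changes of -0.18 (adjusted p = 0.464, edgeR) and 0.04 (adjusted p = 0.911). Jam3 fell by 1.18 with LPS, a call lost without experiment 1 (adjusted p = 0.38, edgeR). Of 4 SLAM family and adaptor genes with a row, 3 rose with LPS and 3 rose and 1 fell with torin1. Slamf8 rose by 2.32 with LPS and by another 2.43 with torin1, and Cd48 had a change of -0.24 with LPS (adjusted p = 0.687, edgeR) and rose by 1.22 with torin1. Mean control levels in total mRNA were low, at 0.356 CPM for F11r, 0.907 for Jam3, 0.188 for Slamf8 and 0.951 for Cd48.

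Genes known to act on the trafficking, stability or shedding of B7 proteins were mixed with LPS, where 3 of 10 rose and 4 fell, and with torin1 6 rose in each RNA type. With the replicate block 1 of the 10 fell in total mRNA. Cmtm6, which stabilises PD-L1 protein, rose by 0.87 with LPS and had a change of -0.11 with torin1 (adjusted p = 0.436, edgeR). Its relative Cmtm4 fell by 1.19 with LPS and rose by 0.72 with torin1. Hip1r, which directs PD-L1 to lysosomes, rose by 1.79 with LPS and by 0.68 with torin1 (adjusted p = 0.205, edgeR), a call lost in total mRNA without experiment 3 (0.42, adjusted p = 0.611).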

How the data were processed

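Total and heavy-polysome mRNA of RAW264.7 cells was sequenced (stranded TruSeq libraries with removal of ribosomal RNA). Reads were aligned by the authors to GRCm38 (Hisat2) and summarised by gene with featureCounts on an Ensembl annotation, and only protein-coding genes with at least 1 count in every library were retained. The deposited values are raw counts of 11243 genes in 18 libraries, without normalization. Processing ran in a nextflow pipeline at its defaults, whose strand setting is not spelled out. The counts resolve the rarest gene, Cd86, to only 4 to 33 reads per control library.

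The main tests used edgeR 4.0.16 in R 4.3.3 (TMM, quasi-likelihood test, Benjamini-Hochberg over all genes, FDR 0.25), with the 9 libraries of an RNA type in one model. Translation efficiency was the interaction in one model of 18 libraries. The thresholds are those of the study's methods. Its anota2seq was not installed, so its analysis of partial variance, written with limma 3.58.1, was an alternative. Others were DESeq2 1.42.0, RLE size factors, at least 10 counts in every library, an FDR of 0.05, other models, a replicate block and each experiment left out. Log2 CPM used a pseudocount of 0.5. Exon lengths came from a GRCm38 annotation (GENCODE). The edgeR tests with and without the block, DESeq2 and the analysis of partial variance were tested on simulated counts. The other steps were not.

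Numbers pair the lysates of one experiment per the labels and methods. In total mRNA, same-numbered libraries of different treatments deviated together from their group means (correlations over genes of 0.15 to 0.42). In polysome-associated mRNA they ranged from -0.09 to 0.74, and were 0.085 or lower between control and the other treatments in experiments 1 and 2. The block gave calls that differed for Cd83 and Icam1, printed beside them. Replicates differed by far more than counting noise (at least 26.3 chi-squared per degree of freedom).

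The 9 genes and all lists were chosen with earlier results of these data known. Named were the members and, per list, the genes with the largest rise and fall with LPS in total mRNA that moved alike in 3 experiments, plus some fixed symbols of interest. The genes most like each member were the 2 with the highest Pearson r.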

Additional observations from a re-analysis of the deposited data

How the results depend on the processing

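All 8 rises with LPS were called in both RNA types under every alternative that tested the gene; at least 10 counts in every library removed Cd86. For LPS+torin1 against LPS in polysome-associated mRNA, 5 of 8 members were called, and 3 to 6 when 1 experiment was left out. Of all 11243 genes 4322 were called there, and 1782, 5182 and 1187 without experiments 1, 2 and 3. The replicate block added Cd83 in that comparison (0.66 on the log2 scale, adjusted p = 0.1, edgeR) and in total mRNA, and Icam1 for LPS+torin1 against control in polysome-associated mRNA, and changed no other call of a member. Other estimates changed sign, none of them called. With torin1 in total mRNA, Cd274 was -0.035 with the replicate block. For translation efficiency, Cd80 (-0.94) and Icosl (0.27) with LPS and Cd83 (-0.0053) with torin1 changed sign under the analysis of partial variance, Cd83 (-0.016) with the replicate block, and Tnfsf9 with torin1 under DESeq2 (0.032) and RLE (0.032). With 1 experiment left out, the torin1 changes spanned -0.16 to 0.31 (Cd274, total), -0.27 to 0.10 (Cd274, polysome-associated), -0.012 to 0.22 (Icosl, total), -0.096 to 0.17 (Icam2, total) and -0.20 to 0.054 (Traf1, total), and that of Cd48 with LPS in total mRNA -0.46 to 0.075. Changes in translation efficiency spanned -0.11 to 0.34 (Cd80), -0.041 to 0.18 (Icam1) and -0.11 to 0.073 (Tnfsf9) with LPS, and -0.014 to 0.14 (Icosl), -0.042 to 0.048 (Cd83) and -0.055 to 0.061 (Tnfsf9) with torin1. The mean polysome minus total of Cd80, an alternative chosen after seeing the data, was -0.0062 under RLE and -0.050 to 0.028 with 1 experiment left out. The cause of these changes was not tested.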

Other observations

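Of 8 genes of MHC class II and its loading with a row, 2 rose and 3 fell with LPS in total mRNA, and 2 rose and 3 fell with torin1. Over all genes 32.2% rose and 34.3% fell with LPS, and 27.3% and 26.4% with torin1. With LPS, Ctss, a protease that trims the invariant chain, rose by 0.55 on the log2 scale and Cd74, the invariant chain itself, by 0.54, whereas Ifi30, a lysosomal thiol reductase, fell by 0.48. With torin1 Ctss rose by 0.58 in total mRNA, and the change of Cd74 was -0.23 (adjusted p = 0.182, edgeR's quasi-likelihood test). The call of Cd74 was lost without experiment 1 (-0.22, adjusted p = 0.269, edgeR) or 3 (-0.16, adjusted p = 0.521), with all 18 libraries in one model (adjusted p = 0.277) and at an FDR of 0.05.

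Of the 10 macrophage markers with a row, 7 rose and 1 fell with LPS in total mRNA, and 3 rose and 4 fell with torin1. Mrc1 (the mannose receptor) rose by 2.71 with LPS and fell by 2.14 with torin1, and Csf1r, the receptor of macrophage colony-stimulating factor, fell by 0.93 with LPS and fell by 0.55 with torin1. Of the 5 dendritic cell markers, 4 rose and 1 fell with LPS in total mRNA, and 3 rose and 1 fell with torin1. Xcr1, a chemokine receptor, rose by 3.67 and fell by 1.59 with torin1, and Zbtb46 fell by 1.07 and rose by 0.90. Relb is on the dendritic cell and CD40 signalling lists. Of the 2 stromal or epithelial markers, 1 rose with LPS in total mRNA: Cdh5, by 0.87 (adjusted p = 0.218, edgeR). Mean control levels in total mRNA were low, at 0.942 CPM for Mrc1, 0.741 for Xcr1, 0.933 for Zbtb46 and 0.453 for Cdh5.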
